A study of Caenorhabditis elegans with 2 samples.

Results

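Translation initiation and elongation factor genes are taken here as the protein-coding genes whose symbols begin with eif- or eef-. Of 19973 nuclear protein-coding genes, 31 met this rule. They comprised 25 initiation genes (eif-) and 6 elongation genes (eef-). Each gene was given a window from 2000 bp upstream of its outermost 5' end to its 3' end, and a peak was assigned to the gene when its summit lay in that window. Of these genes, 4 had a peak of the stringent list described below, namely eif-3.B, eif-3.C, eif-3.I and eef-1A.1.

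Initiation factors bring the initiator tRNA and the small ribosomal subunit to the start codon of an mRNA, and elongation factors then deliver aminoacyl-tRNAs and move the ribosome along the message. Every growing cell uses these factors, so their genes are usually described as broadly expressed. UNC-3, the protein assayed, is the worm member of the COE family of transcription factors and is known for setting the identity of cholinergic motor neurons. The roles of single factors given below are those known from yeast and mammals.

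The study was a chromatin immunoprecipitation with sequencing (ChIP-seq) of tagged UNC-3 in Caenorhabditis elegans. Whole late embryos of strain RW12259 were obtained by bleaching of eggs and given an age of 2.5 hours. Per the labels, they carried the CRISPR insertion st12259[unc-3::TY1::EGFP::3xFLAG] II. The placement on chromosome II is the labels' own and was not checked. The labels describe precipitation with an antibody against GFP, while their antibody field reads unc-3. There was 1 group of 2 biological replicates, with no treatment. The labels point to a control experiment, which was not used here, so no signal from a control stands beside the peaks. Because whole animals were used, the cells in which a site was occupied cannot be told apart.

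The deposited values are peaks with a signal that measures peak strength. How it was computed is not stated, and the lists of both replicates lie on a higher scale than those of 1 replicate, so signals are compared only within a list. The stringent list made from both replicates is called the main list, and the median signal of its 631 peaks was 81.5. The far longer ranked list also keeps weak candidates, and its median signal was 26.8. It also held strong peaks that the main list leaves out, so a rank in the main list counts main peaks only. It gives for each peak −log10 of the irreproducible discovery rate (IDR), where a higher value means better repeatability between the replicates, and no main peak was below 2.00. The replicates' own ranked lists held 33914 and 34079 peaks, with medians of 16.0 and 14.1, and their thresholded lists 353 and 384 peaks. The lists hold no read counts, so depth is unknown. The intervals given with shares are 95% exact Clopper-Pearson intervals, which cover counting error only.

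A main summit lay in the windows of 4 of the 31 genes, or 12.9% with an interval from 3.63% to 29.8%, against 3.59% of all protein-coding genes. Of these, 3 were initiation genes, and all 3 encode subunits of eIF3, the large complex that holds the small ribosomal subunit ready for mRNA. The fourth was eef-1A.1, one of the genes for eEF1A, the factor that carries aminoacyl-tRNAs to the ribosome. The same 4 of 31 genes (12.9%) had a main summit within 500 bp of one of their own annotated 5' ends, against 1.67% of all genes. Both shares count genes with no main summit. Of all 19973 genes, 718 had a main summit in the window, and 334 had one within 500 bp of an own 5' end. With so few genes, each share rests on single peaks.

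At eif-3.B, which encodes a scaffold subunit of eIF3, the main peak lay at chrII:14795056-14795319 in ce11. Its summit was in intergenic sequence, at −216 bp from the gene's outermost 5' end, where a negative distance is upstream. The signal was 85.4, which ranked 285 among the 631 main peaks. Replicate 1 had a signal of 49.7 and replicate 2 one of 27.8 at this peak. The replicate 1 peak was in that replicate's thresholded list at rank 227, while the replicate 2 peak was in its ranked list only. At eef-1A.1 the order of the replicates was the other way round. Its main peak lay at chrIII:6971995-6972258, with a signal of 78.4 at rank 343 and a summit at −415 bp. Replicate 1 had a signal of 30.7 there, in its ranked list only, and replicate 2 had 47.1, in its thresholded list at rank 256. The bases within 100 bp of both main summits are shown, together with those around the strongest ranked summit of eef-1A.2, the other eEF1A gene, because the main list held a peak at one eEF1A gene and none at the other. All run along the plus strand of ce11 with the summit at base 101, and capitals mark GAGAGA on either strand (TCTCTC where it lies on the minus strand). They cover chrII:14795088-14795288, chrIII:6972027-6972227 and chrX:7823095-7823295.
eif-3.B: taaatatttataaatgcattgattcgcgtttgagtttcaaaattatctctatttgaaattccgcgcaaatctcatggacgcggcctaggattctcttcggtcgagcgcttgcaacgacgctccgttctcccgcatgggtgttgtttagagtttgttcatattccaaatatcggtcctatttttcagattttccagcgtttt
eef-1A.1: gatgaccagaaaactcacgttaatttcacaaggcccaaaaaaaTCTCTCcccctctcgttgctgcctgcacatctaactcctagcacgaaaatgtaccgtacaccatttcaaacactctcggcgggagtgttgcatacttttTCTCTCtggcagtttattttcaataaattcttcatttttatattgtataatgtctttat
eef-1A.2: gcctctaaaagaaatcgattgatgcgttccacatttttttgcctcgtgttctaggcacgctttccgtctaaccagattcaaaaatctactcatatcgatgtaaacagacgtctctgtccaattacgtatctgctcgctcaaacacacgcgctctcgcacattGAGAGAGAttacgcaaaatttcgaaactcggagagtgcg

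The eef-1A.1 sequence holds 2 GAGAGA matches on the minus strand, and the eef-1A.2 sequence 2 overlapping matches on the plus strand. The eif-3.B sequence holds none. The gene eef-1A.1 is on the minus strand, and its 5' end was not the nearest one to its peak. The summit lay at −126 bp from the 5' end of rfc-4, which encodes a subunit of the clamp loader of DNA replication and is transcribed in the opposite direction, so the peak sits between a divergent pair. It also lay 42 bp from the microRNA gene cel-mir-5549, whose hairpin covers bases 1 to 59 of the sequence shown. In replicate 1 the summit was inside that microRNA gene, and in replicate 2 it was 50 bp away. Which of the 3 genes the peak belongs to cannot be told apart from position.

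The strongest peak in any window was at eif-3.C, a core subunit of eIF3. It lay at chrI:9979767-9980030 with its summit at −237 bp, in the intergenic stretch between sys-1 and eif-3.C. The gene sys-1, which encodes a beta-catenin, is on the same strand and ends 401 bp upstream of eif-3.C. The signal was 145, at rank 98 of the main list and rank 176 of the ranked list, and the −log10 IDR was 4.89. Replicate 1 had a signal of 59.0 and replicate 2 one of 89.96, and the strongest summits of the replicates lay 12 bp apart. eif-3.C was the only one of the 31 genes with a summit in the thresholded lists of both replicates, at ranks 163 and 58. In each replicate's thresholded list 2 of the 31 genes had a summit, or 6.45%, against 2.06% of all genes in replicate 1 and 2.06% in replicate 2.

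At eif-3.I, a subunit that binds eIF3b, the main peak lay inside the gene, at chrI:2487776-2488039. Its summit was in an intron, at 2047 bp from the outermost 5' end and at −496 bp from the second annotated 5' end of the gene. It was the weakest of the 4 peaks, with a main signal of 66.4 at rank 476. Replicate 1 had a signal of 36.4 and replicate 2 one of 29.4, and the peak was in neither replicate's thresholded list. The −log10 IDR over both replicates was 2.60, against 2.72 at eif-3.B and 2.67 at eef-1A.1. In the ranked list, the eif-3.I peak ranked 647, that of eif-3.B 412 and that of eef-1A.1 476. Of the 4 genes, eif-3.C thus had a thresholded peak in both replicates, eif-3.B and eef-1A.1 in 1, and eif-3.I in neither.

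**Figure D1:**
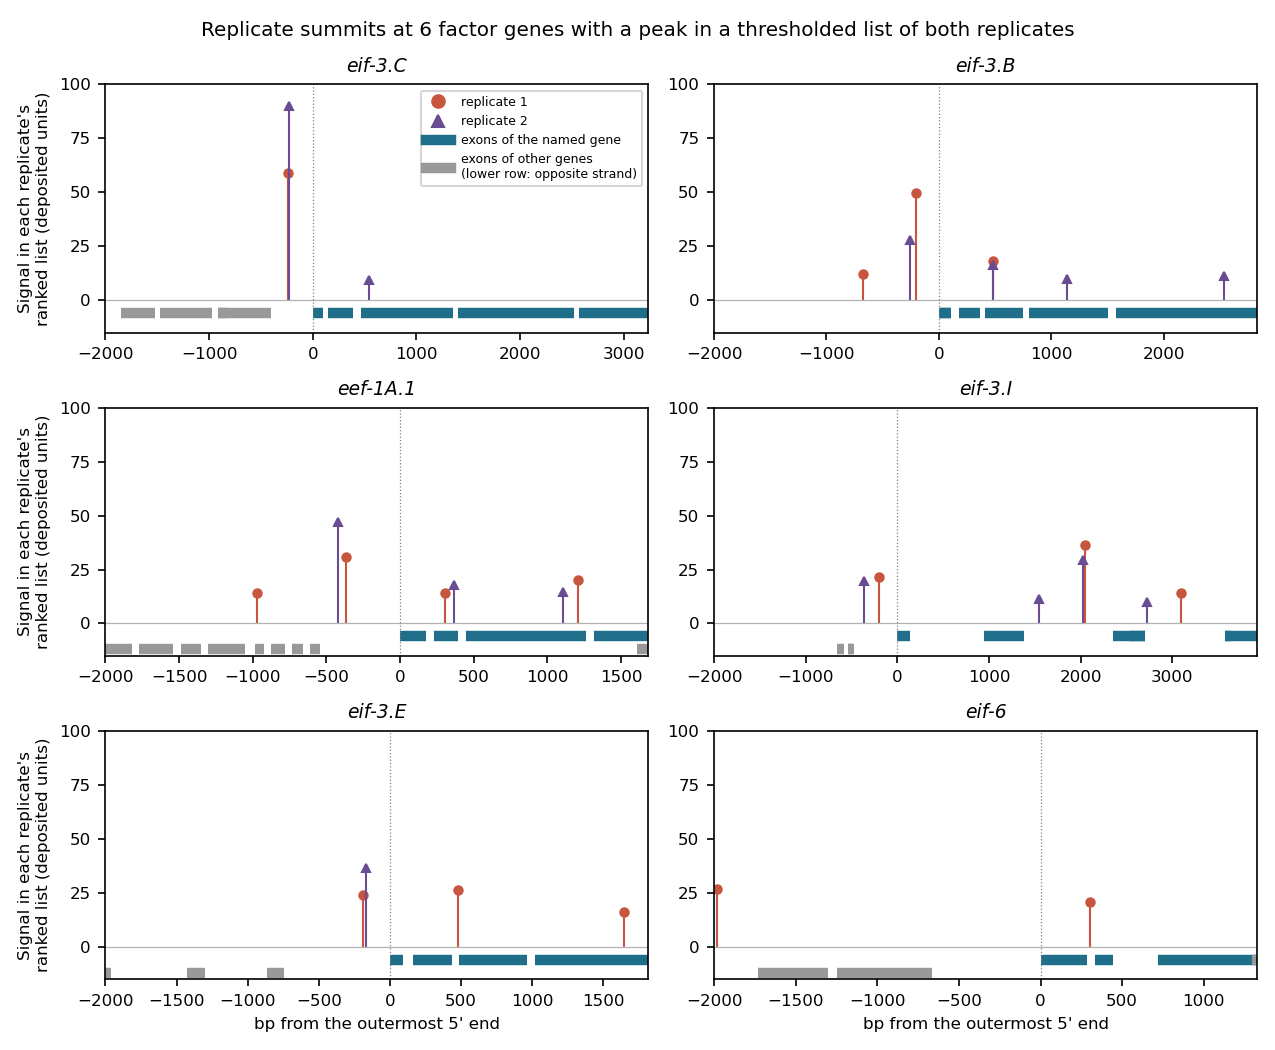
Replicate summits around the 6 genes with a peak in a thresholded list of both replicates; the x axis is distance from the gene's outermost 5' end in bp, the y axis the deposited signal in each replicate's ranked list, and the boxes are exons. Summits of both replicates stand close together upstream of eif-3.B, eif-3.C and eef-1A.1, and inside eif-3.I.

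A second thresholded list of both replicates, with 622 peaks, held a summit at 6 of the 31 genes (19.4%, against 3.52% of all genes). These were the same 4 genes with eif-3.E and eif-6 added. At eif-3.E, another core subunit of eIF3, the summit was at −168 bp, with a signal of 63.5. Its −log10 IDR was 1.35 in the ranked list and 2.14 in a second ranked list of both replicates. At that peak the signal was 24.0 in replicate 1 and 36.6 in replicate 2. The strongest replicate 1 summit of the eif-3.E window was elsewhere, at 478 bp inside the gene with a signal of 26.5. A second eif-3.E summit in this list, at −370 bp, had a signal of 3.69 and ranked 621 of 622.

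The peak counted for eif-6, whose product keeps the large ribosomal subunit from joining too early, lay at the far edge of its window. The summit was at −1997 bp, with a signal of 63.4, and the nearest 5' end was that of tba-2, which encodes an alpha-tubulin, at −154 bp. Replicate 1 had a signal of 26.6 there and replicate 2 had 33.1, but the replicate 2 summit fell just outside the window, so replicate 2 lists none for eif-6. The peak nearest to the 5' end of eif-6 itself was weaker, at 275 bp in coding sequence with a ranked signal of 49.0 and a −log10 IDR of 0.690.

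**Figure D2:**
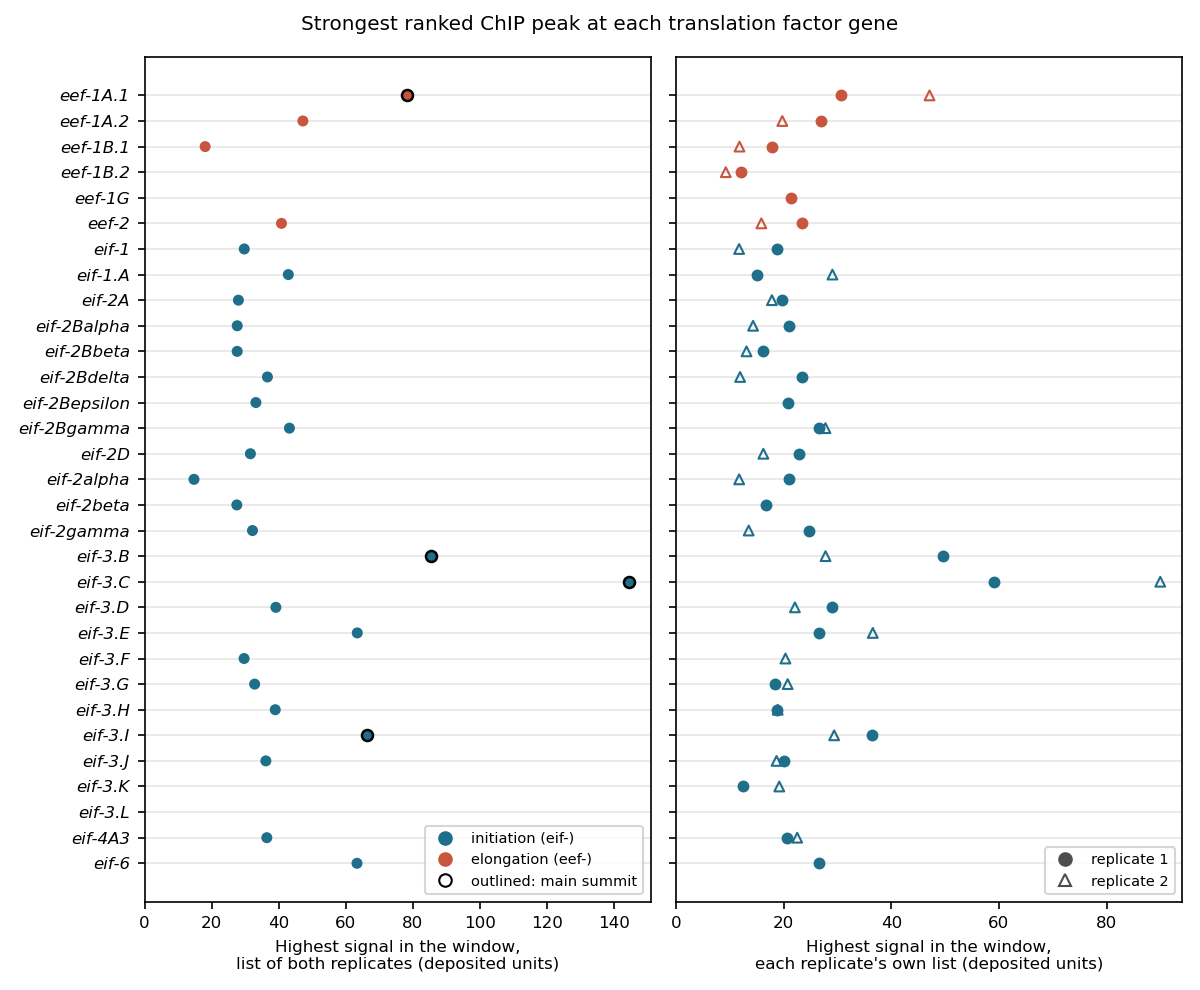
Highest signal in the window of each of the 31 genes in the ranked list of both replicates and in each replicate's ranked list, in deposited units. eif-3.C stands highest at 145, followed by eif-3.B at 85.4 and eef-1A.1 at 78.4, while eif-3.L has no summit in any list.

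The ranked list gives a broader and weaker picture. A ranked summit lay in 27 of the 31 windows (87.1%, interval 70.2% to 96.4%), against 64.6% of all genes. In the second ranked list of both replicates the count was 26 (83.9%, against 61.2%), in replicate 1 it was 29 (93.5%, against 74.1%) and in replicate 2 it was 26 (83.9%, against 74.7%). The windows were of ordinary size, with a median of 4219 bp against 4027 bp for all genes. They held a mean of 2.48 ranked summits, against 1.61. Counting genes without a summit as lowest, the median of the highest ranked signal was 33.2 in these genes and 26.1 in all genes. Of the 27 strongest ranked summits, 20 had a −log10 IDR under 1 and 4 reached 2. These 4 were the main peaks, which reach 2 in every case. The values were not counted over the strongest summits of all genes, so no background stands beside them. Other gene lists of protein synthesis and turnover, given below, had ranked shares from 78.1% to 88.1%.

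A main summit was held by 3 of 25 initiation genes (12%, interval 2.55% to 31.2%) and by 1 of 6 elongation genes (16.7%, interval 0.421% to 64.1%). The initiation interval lies wholly inside the elongation interval. A ranked summit was found at 23 of 25 initiation genes (92%, interval 74.0% to 99.0%) and at 4 of 6 elongation genes (66.7%, interval 22.3% to 95.7%). The shares of all genes were 3.59% and 64.6%, so the ranked share of elongation genes is near the background. The replicates' own ranked lists did not keep this class difference. Replicate 1 had a summit at 23 of 25 initiation genes (92%) and 6 of 6 elongation genes (100%), against 74.1% of all genes. In replicate 2 it was 21 of 25 (84%) and 5 of 6 (83.3%), against 74.7%. The median of the highest signal was 33.2 for initiation and 29.5 for elongation genes in the ranked list. The order turned between replicates, with medians of 20.9 for initiation and 22.4 for elongation genes in replicate 1, and of 18.7 and 13.8 in replicate 2. All genes had medians of 16.3 in replicate 1 and 14.4 in replicate 2. No test was made between the classes, since the genes share the same 2 libraries.

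**Figure D3:**
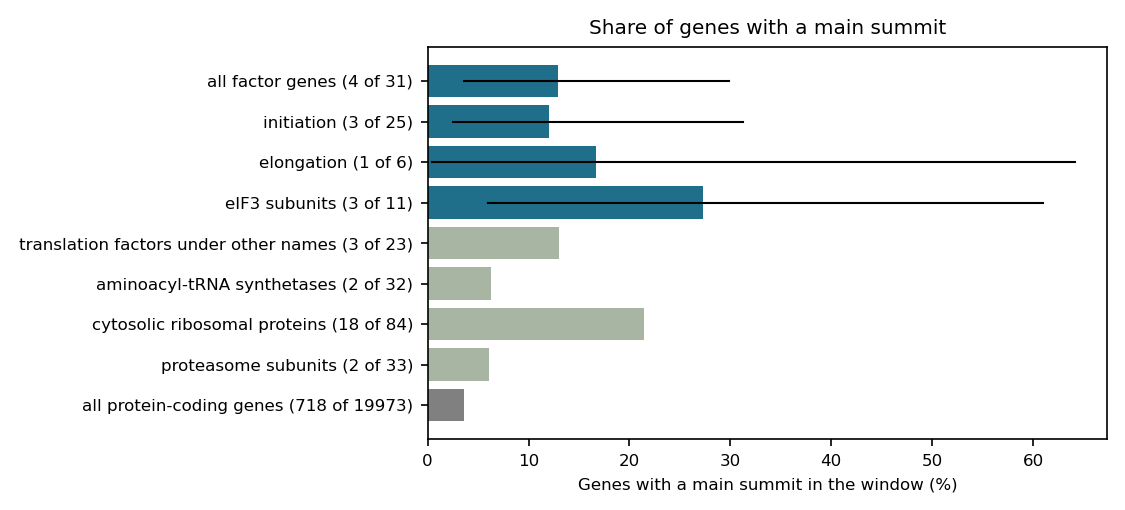
Percent of genes with a main summit in the window, for all protein-coding genes, the translation factor genes, initiation and elongation genes, and other gene lists of protein synthesis and turnover; black lines are 95% exact intervals, drawn where they were computed. The 31 genes reach 12.9% and all genes 3.59%.

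Among initiation genes, the main summits were all at eIF3 subunits, at 3 of 11 (27.3%, interval 6.02% to 61.0%). Of these 11 genes, 9 had a ranked summit, with a median highest signal of 39.0. eif-3.K had no summit in the ranked list, though replicate 1 had one with a signal of 12.4 and replicate 2 one with 19.2, and the second ranked list had one with 31.2. eif-3.L had none in any list. At eif-3.D, eif-3.H and eif-3.J the strongest ranked summits lay inside neighbouring genes. At eif-3.D, a subunit linked to recognition of the mRNA cap, the strongest summit was at −1782 bp in a coding exon of R08D7.4, with a ranked signal of 39.2. There, the signal was 15.6 in replicate 1 and 22.1 in replicate 2. The strongest replicate 1 summit of that window was at −230 bp instead, with a signal of 29.0.

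At eif-3.H the strongest summit was in an intron of C41D11.3, at −1676 bp with a ranked signal of 39.0. The bases within 100 bp of it align over at least 100 bp, at 90% identity or more, to 176 other places in the genome, so reads from repeats may not be told apart there. At eif-3.J, whose product loosely joins the complex, the summit was in an intron of slc-25A46 at −1449 bp, with a ranked signal of 36.2. At that eif-3.J peak, the signal was 20.0 in replicate 1 and 14.5 in replicate 2.

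No gene for eIF2, which carries the initiator tRNA, or for eIF2B, the exchange factor that recharges it with GTP, had a main summit. There are 3 genes of the first kind and 5 of the second. The highest ranked signal of these 8 was 43.2 at eif-2Bgamma, where replicate 1 had 26.6 and replicate 2 had 27.8. The summit was at −882 bp, in an intron of C15F1.5 and inside sup-39, a short RNA gene that the annotation classes as snRNA. The −log10 IDR of this peak was 1.69 in the ranked list and 0.524 in the second ranked list. The bases within 100 bp of it are shown because the summit falls in the short RNA gene, whose bases 1 to 129 are in capitals. The stretch is chrII:6968430-6968630, plus strand, and sup-39 is on the minus strand. Over at least 100 bp, 7 other places in the genome were at least 90% identical.
eif-2Bgamma: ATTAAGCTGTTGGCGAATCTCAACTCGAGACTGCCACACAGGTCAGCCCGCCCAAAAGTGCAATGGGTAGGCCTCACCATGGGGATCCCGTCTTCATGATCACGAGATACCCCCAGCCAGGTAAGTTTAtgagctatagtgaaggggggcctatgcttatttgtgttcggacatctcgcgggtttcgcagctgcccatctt

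eif-2Bdelta had a ranked signal of 36.7 at −455 bp, with 23.4 in replicate 1 and no peak there in replicate 2. eif-2Bepsilon, the catalytic subunit of eIF2B, had 33.2 at −1212 bp, in an intron of piga-1, with 20.9 in replicate 1 and no summit anywhere in the window in replicate 2. The 3 genes for eIF2 subunits had highest ranked signals from 14.8 at eif-2alpha to 32.2 at eif-2gamma. The eif-2alpha peak was held by neither replicate's own ranked list. Several of these values thus rest on 1 replicate or on the joint list alone.

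For eIF1A, which with eIF1 opens the small subunit for scanning, eif-1.A had a ranked signal of 42.9 at −390 bp. Replicate 2 was the higher there, with 29.1 against 15.1 in replicate 1, and the −log10 IDR was 0.0927. eif-4A3, whose product is an RNA helicase of the exon junction complex, had 36.5 in a coding exon, at 180 bp from its second 5' end. At that eif-4A3 peak, the signal was 20.5 in replicate 1 and 12.7 in replicate 2. The strongest replicate 2 summit of eif-4A3 was far downstream, with a signal of 22.5 at 62 bp from the snoRNA gene Y65B4A.10.

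Besides eef-1A.1, the elongation genes with a ranked summit had a −log10 IDR under 1 at the strongest one. This held at 20 of all 27 genes with a ranked summit, so it does not set the elongation genes apart. At eef-1A.2 the strongest summit was at −459 bp, with a ranked signal of 47.3, rank 1590 in the ranked list and a −log10 IDR of 0.942. The signal was 26.9 in replicate 1 and 19.8 in replicate 2 at this peak, each below the value at eef-1A.1 in the same replicate. The coding sequences of eef-1A.1 and eef-1A.2 are both 1389 bases long and share 1305 bases, or 94.0%. Reads in the coding exons may therefore not be told apart, and the ranked summits inside the coding exons of both genes, at 1209, 390 and 983 bp in eef-1A.1 and 306 and 907 bp in eef-1A.2, each had 1 other place in the genome over at least 100 bp. The upstream summits of both genes had none.

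eef-2, whose product moves the ribosome by a codon, had a ranked signal of 40.9 in a coding exon at 2978 bp, with 23.5 in replicate 1 and 13.2 in replicate 2. The factors that recharge eEF1A had less. eef-1B.1 had 18.1 at −838 bp, in an intron of aco-2, with 17.9 in replicate 1 and 11.8 in replicate 2. eef-1B.2 had no summit in the ranked list, 12.1 in replicate 1 at −1567 bp and 9.26 in replicate 2 at −287 bp. eef-1G also had none in the ranked list and none in replicate 2, but replicate 1 had a signal of 21.3 at −47 bp and the second ranked list had 39.0 at −79 bp. Whether eef-1G carries a weak promoter peak therefore differs between the lists.

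Of the 77 ranked summits in these windows, 31 (40.3%) were within 500 bp of a 5' end of the same gene, against 26.3% of the 32254 summits in the windows of all genes. The median distance was 882 bp, against 1129 bp, and 53.2% lay upstream, against 39%. Initiation genes had 36 of 62 summits upstream (58.1%), and elongation genes 5 of 15 (33.3%). Of these 15 summits, 4 were at eef-1A.1 and 6 at eef-1A.2, so the elongation share rests largely on the eEF1A genes. The strongest ranked summit lay within 500 bp of an own 5' end at 10 of the 31 genes (32.3%, interval 16.7% to 51.4%), against 20.1% of all genes. It had an own 5' end as the nearest of any gene at 15 of 31 (48.4%), against 44.9%. These shares count genes without a ranked summit as not meeting the rule, and such genes were fewer among the 31. Over genes with a ranked summit, the first share was 10 of 27 (37%, interval 19.4% to 57.6%), against 31.2%. The second was 15 of 27 (55.6%, interval 35.3% to 74.5%), against 69.6%, so that its direction turned. By class, the nearest 5' end was the gene's own at 14 of the 23 initiation genes with a ranked summit (60.9%, interval 38.5% to 80.3%) and at 1 of the 4 such elongation genes, eef-1A.2 (25%, interval 0.631% to 80.6%). These intervals overlap.

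**Figure D4:**
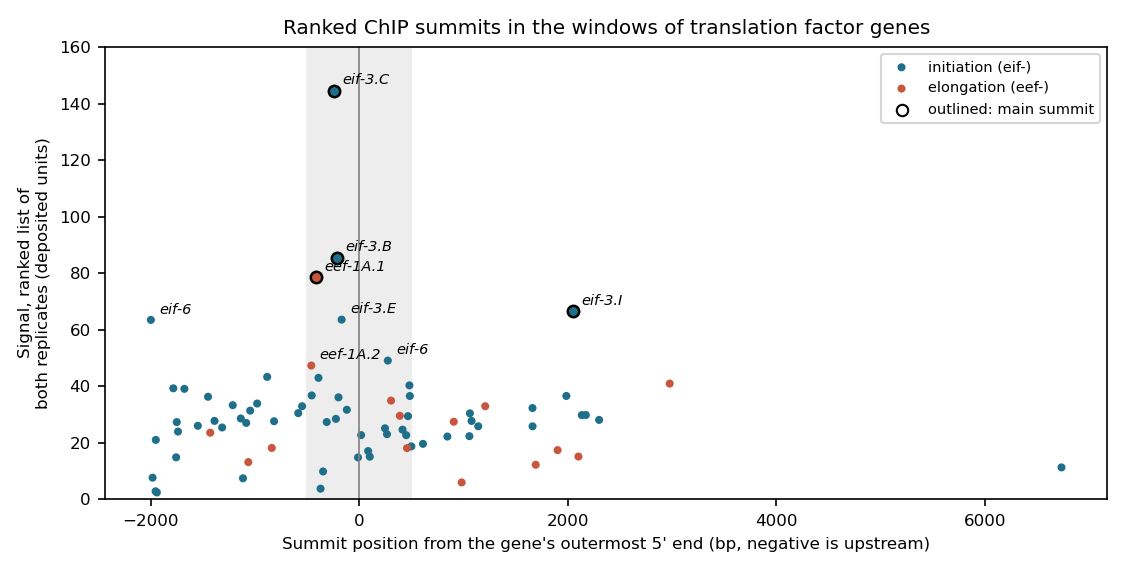
The 77 ranked summits in the windows of the translation factor genes by distance from the gene's outermost 5' end in bp (negative is upstream) and ranked signal in deposited units; outlined points are main summits, and the grey band spans 500 bp on each side. The outlined points of eif-3.B, eif-3.C and eef-1A.1 lie in the band upstream of the 5' end, and that of eif-3.I lies at 2047 bp.

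The strongest ranked summits were intergenic at 12 of the 27 genes that had one, in introns at 8, in coding exons at 5 and in untranslated exons at 2. Among them, 7 lay inside another gene. These placements were counted for the 27 genes only, so no share of all genes stands beside them. A gene on the same strand ended within 500 bp upstream at 6 of the 31 genes (19.4%, against 18.1% of all genes), as sys-1 does before eif-3.C.

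Short RNA genes (tRNA, snoRNA, snRNA, miRNA or rRNA) were in the windows of 4 of the 31 genes, eef-1A.1, eef-1G, eif-2Bgamma and eif-4A3, or 12.9% against 5.22% of all genes. All 4 had a summit within 500 bp of the short RNA gene in at least 1 ranked list. This was not counted over all genes with a short RNA gene, so no background stands beside it. A main summit lay within 500 bp of a short RNA gene only at eef-1A.1. The main peaks of eif-3.B, eif-3.C and eif-3.I were at least 13658 bp away from any. The summit at eef-1G was in replicate 1 only, with a signal of 11.5 at 88 bp from the snoRNA gene F17C11.14. The part of the short RNA genes in these signals was not tested.

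The replicates placed their strongest summits within 250 bp of each other at 11 of the 25 genes with a summit in both (44%, interval 24.4% to 65.1%), against 30.7% of the 12172 genes with both. For initiation genes it was 8 of 20 and for elongation genes 3 of 5. Over the 25 genes, whose points share the same 2 libraries, log10 of the highest signal correlated with a Pearson r of 0.681 and a Spearman rho of 0.554. Without the 4 genes with a main summit, the values over 21 genes were 0.329 and 0.294. Those 4 genes came from a list made from the same 2 replicates, and eif-3.C among them had the highest signal in each replicate. The reason for the lower values was not tested.

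Sequence around the summits was searched within 100 bp, on both strands. The COE motif, the known binding pattern of the UNC-3 family, was searched exactly as TCCCNNGGGA, where N is any base, and in a relaxed form that takes either pyrimidine first and either purine last. Neither form was found, at 0 of the 27 strongest ranked summits. Among all ranked summits 0.366% held the exact form and 0.706% the relaxed one, and among all main summits 2.38% and 3.33%. With shares this low, 0 of 27 does not set these genes apart. GAGAGA was found at 8 of 27 (29.6%), against 14.7% of all ranked and 29.2% of all main summits. The ranked shares include the weaker summits of each window. No share was computed over the strongest summit of every gene's window, so the comparison is not like with like. The 8 genes were eef-1A.1, eef-1A.2, eef-1B.1, eif-1.A, eif-2A, eif-2D, eif-3.D and eif-6, so of the 4 main summits 1 held it. A match describes these letters and not a site.

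Other genes of protein synthesis and turnover were read by the same rule. Of 23 translation factor genes under other names, 3 had a main summit (13%). They were ifet-1, for a repressor that binds eIF4E, with a main signal of 94.3, iff-2, for eIF5A, with 77.6, and pab-2, for a poly(A)-binding protein, with 75.3. Cytosolic ribosomal protein genes had 18 of 84 (21.4%), led by rpl-3 at 200.4, rpl-15 at 158, rpl-35 at 145 and rpl-20 at 136. Aminoacyl-tRNA synthetase genes had 2 of 32 (6.25%), ears-2 at 191 and fars-1 at 125. Proteasome genes had 2 of 33 (6.06%), pbs-5 at 141 and rpn-8 at 58.5. The summits at fars-1 and rpn-8 lay 36 and 33 bp from snoRNA genes. A ranked summit was held by 87% of the factors under other names and 88.1% of the ribosomal protein genes. It was held by 78.1% of the synthetase and 87.9% of the proteasome genes, against 87.1% of the 31 genes. In the same order, the medians of the highest ranked signal were 37.4, 39.3, 30.5 and 36.0, against 33.2 in the 31 genes.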

How the data were processed

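UNC-3::eGFP ChIP-seq peak lists from 2 replicates were read as the authors deposited them. Per the file headers, in the notes deposited beside them, the thresholded lists of both replicates derive from 1 further file that the ranked lists do not name. Per the labels, positions are on ce11, which is the WBcel235 assembly, and no peak ran past a chromosome end. The deposited signal and the deposited −log10 IDR values were used without rescaling. The labels and file notes used here give no aligner or peak caller, the control experiment that the labels point to was not used here, and depth is unknown.

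Genes came from Ensembl release 115. A summit was the peak's start plus its deposited offset. For each gene, summits in the window were counted and set beside the same share over all 19973 genes, and no test was made, since there is 1 group and genes are not replicates. Shares carry exact intervals at the 95% level. The stretch of 100 bp on each side of a summit was aligned to the genome at 90% identity. Genes named are those with a thresholded summit, the next 10 by ranked signal, the eef- genes, genes with no summit and those with a short RNA gene near a main summit, and other genes only as hosts, neighbours or the 4 strongest of a list; further eif- genes were named as ends of a range, as members of a pattern count or for having no summit in 1 list, after their values were seen. The genes and lists were chosen with earlier results of these data known. The window rule was tested on simulated data. Python 3.11.15, NumPy 2.4.6, SciPy 1.17.1, pysam 0.24.0 and BLAST 2.17.0 were used. Alternatives changed the list, the window, the distance limit and the replicates.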

Additional observations from a re-analysis of the deposited data

How the results depend on the processing

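Of 32 alternatives, 21 left the value within 1.5 times. The number of genes with a main summit, 4, was 2 in either replicate's thresholded list alone, and 2 when main peaks had to reach the list's median signal. It was 6 in the other thresholded list and 3 or 4 with other windows. The 3 initiation genes became 1 to 2 with 1 replicate left out and 5 in the other thresholded list. The single elongation gene, eef-1A.1, became 0 to 1 with 1 replicate left out (0 without replicate 2), 0 at the median signal and 0 when summits near short RNA genes were dropped. With a limit of 250 bp in place of 500 bp, 2 of 4 genes, eif-3.B and eif-3.C, kept a main summit near a 5' end. The 27 genes with a ranked summit ranged from 25 to 29. Chosen after seeing the data, a denominator of genes with a ranked summit turned the lead of these genes over all genes in having an own 5' end nearest to the strongest ranked summit from 3.45 to -14.0 percentage points, since genes without a summit can no longer count against either share. For a strongest summit within 500 bp of an own 5' end, the lead was 5.86 in place of 12.1 percentage points. Beyond the construction of each alternative, the cause was not tested. No paired analysis was possible because there is 1 group. Without read counts, the sampling error of a signal cannot be given.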
